A study of Mus musculus with 41 samples.

Results

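The 10 genes described here mark the neural crest and the lineages that come from it: Sox10, Foxd3, Tfap2a, Tfap2b, Snai2, Ets1, Twist1, Erbb3, Tlx2 and Postn. They were taken by gene symbol from a list drawn up with earlier results of these data known, and all 10 were among the 24410 symbols of the count table. All 10 also passed the filter on low counts, which left 15204 genes to test. The libraries came from R1-iCas9 mouse embryonic stem cells, whose Cas9 is induced with doxycycline. Differentiation used bFGF, then the Wnt pathway activator CHIR99021, then retinoic acid with the Smoothened agonist SAG, then SAG alone, which was the medium on all days of collection. The labels call the resulting cells neural progenitors, and give the molecule as genomic DNA although the protocols describe total RNA. RNA was collected at days 7, 9 and 11.

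The groups, by genotype label, were Eed KO, Ezh2 KO, Brd8 KO and Nr6a1 KO, each transfected with a pool of 5 guides against that gene, and the non-targeting control (NT). All groups, NT included, carried the doxycycline-inducible Cas9. All went through the same media. The knockouts are transfected populations, and no label describes clones. No file used here measures the edits. Of the targets, Ezh2 is the histone H3 methyltransferase of Polycomb repressive complex PRC2 and Eed its partner that binds the mark. Brd8 is a bromodomain protein of the TIP60 histone acetyltransferase complex. Nr6a1 is a nuclear receptor with no known ligand. There were 3 libraries for 11 of the 15 groups, and 2 for Nr6a1 on each day and for Brd8 at day 9. Levels are CPM, counts scaled to library size, and group means carry the SD between libraries. Log2 fold changes come from an edgeR quasi-likelihood model and carry their standard error (SE). A gene was called where its p, adjusted over all 15204 genes, was under 0.05. No label says that replicates were separate cultures, so p measures the spread between these libraries, which may be technical.

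The neural crest forms at the border between the neural plate and the surface ectoderm and leaves the dorsal neural tube. It gives rise to peripheral neurons, Schwann cells, melanocytes and, in the head, cartilage and bone. Border factors such as Pax3, Msx and Zic proteins precede crest specifiers such as Foxd3, Snai2, Tfap2a and Sox10. Several of these genes are also used by other cells. Sox10 and Erbb3 are used by the oligodendrocyte lineage, and Ets1 by endothelium and blood. Tfap2a and Tfap2b are used by surface ectoderm and by inhibitory interneurons of the dorsal spinal cord.

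Across the series, depth was 8581282 to 38240227 estimated counts per library, so that 3 counts, the limit that a count of 0 allows, were 0.0785 to 0.35 CPM. The targeted genes did not fall by the test. Eed RNA was 27.7 to 36.1 CPM in Eed libraries and 24.9 to 26.3 CPM in NT libraries at day 7. At day 9 it was 22.6 to 26.6 CPM against 18.6 to 24.8 CPM. At day 11 it was 16.4 to 19.4 CPM against 13.6 to 15.4 CPM. Brd8 RNA was 87.8 to 94.7 CPM in Brd8 libraries and 99.6 to 113 CPM in NT libraries at day 7. At day 9 it was 75.6 to 91.7 CPM against 77.2 to 83 CPM. At day 11 it was 54.1 to 66.5 CPM against 61 to 80.3 CPM. Nr6a1 RNA was 114 to 132 CPM in Nr6a1 libraries and 171 to 182 CPM in NT libraries at day 7 (log2 fold change -0.51 ± 0.129, adjusted p = 0.121). Ezh2 RNA at day 11 was higher, at 153 to 190 CPM in Ezh2 libraries against 118 to 152 CPM in NT libraries (0.37 ± 0.0919, adjusted p = 0.00736). It was 197 to 205 CPM in Eed libraries and 170 to 211 CPM in Brd8 libraries of that day. The higher level was thus not particular to Ezh2 guides. RNA level does not measure the edit. NT replicate 3 and Eed replicate 3 at day 11 agreed least with their own groups (highest correlation of log2 CPM with a library of the group 0.939 and 0.945). Results that change without them are given with both values.

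Start-site sequences were available for 5 of the 10 members, from RefSeq on GRCm38.p6. The 250 bases before the start are shown for 3 members that rose with guides against Eed or Brd8 and for Twist1, which was called in no comparison, to set their CpG content side by side. CpG dinucleotides are in capitals, since PRC2 in mammals is found mostly at CpG-rich promoters. Each is on the plus strand, at chr4:99656049-99656298 (Foxd3), chr1:19211804-19212053 (Tfap2b), chr3:54360857-54361106 (Postn) and chr12:33957421-33957670 (Twist1).
Foxd3: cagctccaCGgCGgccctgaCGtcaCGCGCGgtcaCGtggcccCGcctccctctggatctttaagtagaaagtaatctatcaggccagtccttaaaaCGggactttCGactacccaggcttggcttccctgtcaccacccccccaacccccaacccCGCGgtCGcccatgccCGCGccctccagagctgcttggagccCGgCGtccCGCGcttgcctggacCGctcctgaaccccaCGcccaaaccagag
Tfap2b: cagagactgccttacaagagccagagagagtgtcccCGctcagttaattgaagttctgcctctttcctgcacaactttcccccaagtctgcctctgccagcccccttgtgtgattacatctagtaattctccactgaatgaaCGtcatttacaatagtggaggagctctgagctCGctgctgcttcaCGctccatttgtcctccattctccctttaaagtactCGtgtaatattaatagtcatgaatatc
Postn: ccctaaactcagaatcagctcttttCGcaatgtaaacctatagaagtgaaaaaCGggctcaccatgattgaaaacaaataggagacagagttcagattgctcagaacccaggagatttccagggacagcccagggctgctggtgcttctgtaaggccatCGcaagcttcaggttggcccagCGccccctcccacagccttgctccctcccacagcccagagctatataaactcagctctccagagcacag
Twist1: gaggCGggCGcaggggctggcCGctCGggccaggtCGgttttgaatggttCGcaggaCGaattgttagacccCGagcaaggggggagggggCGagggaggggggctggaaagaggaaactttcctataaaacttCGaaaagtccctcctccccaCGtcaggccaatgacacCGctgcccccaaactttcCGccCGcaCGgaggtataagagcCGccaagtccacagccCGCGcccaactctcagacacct

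The Foxd3 window held 21 CpG, and 16.3% of the 32851 promoters in the table hold at least as many. Twist1 held 18 (21.7% of promoters have at least as many), Tfap2b 5 (55.6%) and Postn 4 (62.2%), against a median of 6 over all promoters. A second Postn start held 3 CpG, and each of 2 Tfap2a windows held 10. The Tfap2b window and both Tfap2a windows lay inside the bounds of their own gene. They thus precede internal starts, and the bases before the outermost start of these genes were not examined. Windows of members that rose thus held 3 to 21 CpG, and that of Twist1, which was not called, held 18. PRC2 binding was not measured, and a link between CpG content and the rises was not tested. The AP-2 core GCCNNNGGC, searched on both strands, was found once, in the Postn window shown, and 13.7% of all promoters hold it. The E-box CACCTG bound by Snail factors and the Sox core ACAAAG were in none of the member windows, and 17.2% and 16.5% of promoters hold them.

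Most of the crest genes were called higher with guides against Eed or Brd8, 0 to 3 were called higher with guides against Ezh2, and none was called with guides against Nr6a1. With Eed guides 6 of the 10 members rose at day 7 and 6 at day 9, and at day 11 7 rose and Ets1 fell. With Brd8 guides 6 rose at day 7, 7 at day 9 and 6 at day 11, and none fell. With Ezh2 guides Sox10 rose at day 7, none was called at day 9, and at day 11 Foxd3, Tfap2a and Tfap2b rose and Ets1 fell. Between Eed and Ezh2 guides themselves, 0, 0 and 1 member were called at days 7, 9 and 11. In a fit of the Ezh2 and NT groups of day 7 alone, 4 members were called rather than 1. In bulk RNA, more or fewer cells of a type and more or less RNA per cell cannot be told apart. Ranges of adjusted p over alternatives leave out the fit without a low-count filter, whose standard errors were a median 0.49 of those of the fit reported (0.125 against 0.45 for Sox10 with Eed guides at day 9).

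These counts stand against the share of all 15204 genes called higher in the same comparison. For Eed guides that share was 2.9% at day 7, 2.99% at day 9 and 13.3% at day 11, and the shares called lower were 5.76%, 2.16% and 10.6%. For Ezh2 guides it was 0.0855% at day 7, 0.0% at day 9 and 5.22% at day 11, and the shares called lower were 0.0658%, 0.0% and 2.7%. For Brd8 guides it was 1.3%, 7.72% and 10.3% at days 7, 9 and 11, and the shares called lower were 3.45%, 7.81% and 7.48%. The members' median log2 fold change was 2.22, 1.57 and 1.88 at days 7, 9 and 11 with Eed guides, 1.61, 1.11 and 0.80 with Ezh2 guides, and 2.30, 2.62 and 1.72 with Brd8 guides. The median over all tested genes was between -0.004 and 0.03 in all 9 comparisons. All comparisons of a day share the same NT libraries.

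**Figure D1:**
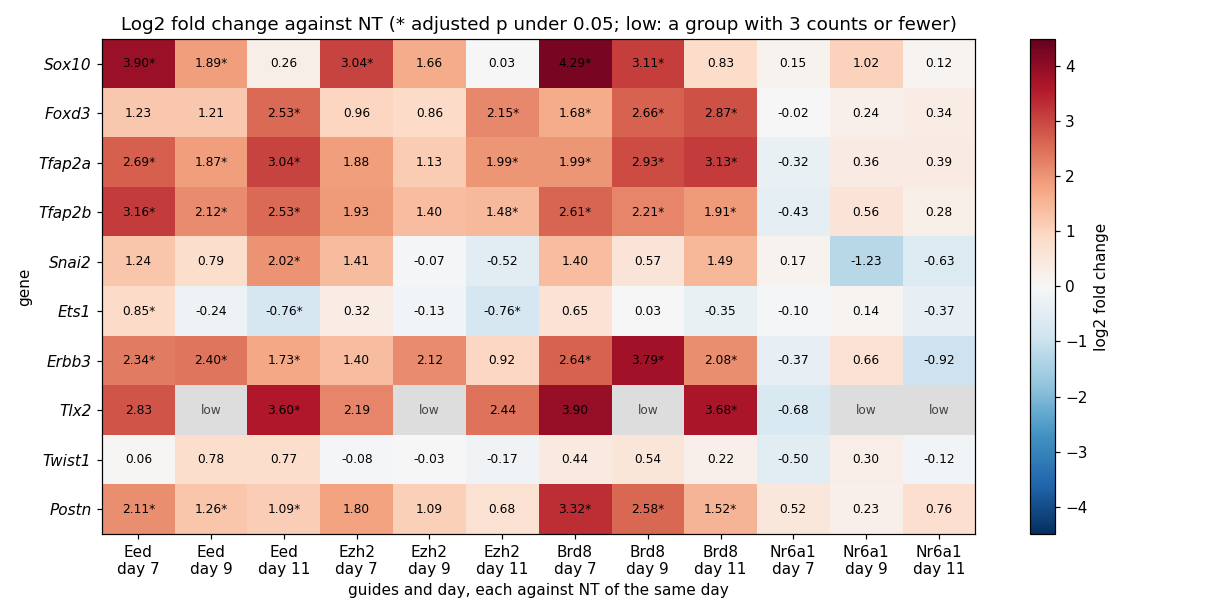
Log2 fold change of each member (rows) against NT of the same day for each guide set and day (columns), with red above 0 and blue below, and an asterisk where the adjusted p was under 0.05. Cells marked low have a group with 3 counts or fewer. The Eed and Brd8 columns are red for most members at every day, the Nr6a1 columns hold no asterisk, and the Twist1 row holds none.

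Sox10 (chromosome 15, 79154908 to 79165240, minus strand, GRCm38) encodes the SoxE factor that maintains crest progenitors and their glial and melanocyte derivatives. At day 7 Sox10 had 34.7, 39.8 and 23.8 CPM in Eed libraries, 16.2, 27.4 and 10.9 CPM in Ezh2 libraries, 72.2, 39 and 17.5 CPM in Brd8 libraries and 3.61 and 1.76 CPM in Nr6a1 libraries, against 2.56, 3.75 and 0 CPM in NT libraries. All 9 Eed, Ezh2 and Brd8 libraries were above all NT libraries, and the Nr6a1 libraries overlapped them. Sox10 rose 14.9-fold with Eed guides (log2 fold change 3.90 ± 0.602, adjusted p = 4.59e-05), 8.23-fold with Ezh2 guides (3.04 ± 0.621, adjusted p = 0.0263) and 19.5-fold with Brd8 guides (4.29 ± 0.593, adjusted p = 4.84e-05). The Brd8 log2 fold change was 3.67 without Brd8 replicate 1. The Ezh2 call was lost without Ezh2 replicate 1 or 2 (adjusted p = 0.0531 and 0.379) or without NT replicate 1, 2 or 3 (adjusted p = 0.114, 0.064 and 0.157; 0.000459 to 0.379 over its alternatives).

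At day 9 Sox10 had 29, 57.4 and 94.3 CPM in Eed libraries, 27, 27.7 and 94.7 CPM in Ezh2 libraries, 170 and 109 CPM in Brd8 libraries and 41.8 and 23.2 CPM in Nr6a1 libraries, against 12.5, 16.7 and 19.2 CPM in NT libraries. No knockout library overlapped NT. The rise passed with Eed guides (3.70-fold, log2 fold change 1.89 ± 0.45, adjusted p = 0.0111) and Brd8 guides (8.61-fold, 3.11 ± 0.485, adjusted p = 2.32e-05), and not with Ezh2 guides (1.66 ± 0.448, adjusted p = 0.422) or Nr6a1 guides (1.02 ± 0.492, adjusted p = 0.686). Without Eed replicate 3, the highest of its group, the Eed log2 fold change was 1.39 (adjusted p = 0.185), and without NT replicate 1 it was 1.74 (adjusted p = 0.0739; 0.00128 to 0.185 over the alternatives).

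At day 11 Sox10 had 114, 118 and 125 CPM in Eed libraries, 76.6, 156 and 69.6 CPM in Ezh2 libraries, 200, 174 and 154 CPM in Brd8 libraries and 121 and 94.5 CPM in Nr6a1 libraries, against 107, 108 and 81.4 CPM in NT libraries. Eed and Brd8 libraries were above NT without overlap, but no comparison passed: log2 fold changes were 0.26 ± 0.412 with Eed guides, 0.03 ± 0.411 with Ezh2 guides and 0.83 ± 0.412 with Brd8 guides (adjusted p = 0.705, 0.981 and 0.173). With only the groups compared in the fit, the Brd8 difference passed (adjusted p = 0.000368). In NT libraries themselves Sox10 averaged 98.9 ± 15.2 CPM at day 11 and 2.1 ± 1.92 CPM at day 7 (SD, n = 3 each), a 45.1-fold rise with time (5.49 ± 0.588, adjusted p = 4.63e-10). As a ratio to NT, the effect of the guides was smaller at day 11 than at day 7, by -3.64 ± 0.74 on the log2 scale for Eed, -3.01 ± 0.754 for Ezh2 and -3.46 ± 0.735 for Brd8 (adjusted p = 0.00133, 0.0291 and 0.00323). The NT libraries of day 7 held 53, 36 and 0 Sox10 counts. In CPM the gap between the Brd8 and NT means was wider at day 11 (176 against 98.9) than at day 7 (42.9 against 2.1). The Eed and Ezh2 gaps were narrower at day 11. The shares of all genes whose effect was called smaller or more negative at day 11 were 2.32%, 0.408% and 1.57%. The Ezh2 difference was lost without Ezh2 replicate 2 or NT replicate 1 or 3 of day 7 or Ezh2 replicate 1 or 3 of day 11 (log2 differences of -3.24 to -2.56, adjusted p = 0.062 to 0.117). The Brd8 difference was -2.84 without Brd8 replicate 1 of day 7 (adjusted p = 0.0238).

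Foxd3 (chromosome 4, 99656299 to 99658622, plus strand) encodes a forkhead factor of premigratory crest that is also used by pluripotent cells. At day 7 Foxd3 had 9.96, 10.1 and 11 CPM in Eed libraries, 8.03, 13.5 and 4.25 CPM in Ezh2 libraries, 18.2, 11.9 and 12.3 CPM in Brd8 libraries and 6.85 and 2.32 CPM in Nr6a1 libraries, against 5.7, 3.44 and 3.8 CPM in NT libraries. At day 11 Foxd3 had 32, 34.5 and 16.2 CPM in Eed libraries, 16.4, 31.6 and 15.5 CPM in Ezh2 libraries, 39.6, 41.3 and 23.6 CPM in Brd8 libraries and 5.82 and 6.27 CPM in Nr6a1 libraries, against 2.87, 7.23 and 4.33 CPM in NT libraries. Every Eed, Ezh2 and Brd8 library was thus above every NT library at day 11, and the Nr6a1 libraries lay within NT. Foxd3 rose 5.79-fold with Eed guides (log2 fold change 2.53 ± 0.476, adjusted p = 9.94e-05), 4.44-fold with Ezh2 guides (2.15 ± 0.472, adjusted p = 0.0024) and 7.29-fold with Brd8 guides (2.87 ± 0.479, adjusted p = 2.71e-05) at day 11, and each of these calls was kept in every alternative run.

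At days 7 and 9 Foxd3 was called with Brd8 guides. At day 9 it had 32.1 and 26 CPM in Brd8 libraries against 3.27, 6.19 and 4.08 CPM in NT libraries, a 6.30-fold rise (2.66 ± 0.498, adjusted p = 0.000221) kept in every alternative. At day 7 the Brd8 rise was 3.20-fold (1.68 ± 0.473, adjusted p = 0.0293) and was lost without Brd8 replicate 1 or NT replicate 2 or 3 (adjusted p = 0.171, 0.124 and 0.119; 0.000979 to 0.171 over the alternatives). With Eed guides the log2 fold changes were 1.23 ± 0.479 at day 7 and 1.21 ± 0.464 at day 9 (adjusted p = 0.11 and 0.128). These passed at day 7 with only the groups compared (adjusted p = 0.00708) and at day 9 without Eed replicate 1 (1.64, adjusted p = 0.0167). In NT libraries Foxd3 did not change with time by the test, at 4.81 ± 2.22 CPM at day 11 and 4.31 ± 1.22 CPM at day 7 (adjusted p = 0.878).

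Tfap2a (chromosome 13, 40715302 to 40738376, minus strand) encodes the AP-2α factor of border, crest and surface ectoderm. It overlaps the opposite-strand gene Gm26688, and the sources do not say whether counting used strand, so reads of the overlap may not be assigned to the right gene. At day 7 Tfap2a had 39.3, 45.5 and 38.7 CPM in Eed libraries, 20.2, 32.1 and 18.1 CPM in Ezh2 libraries, 27.7, 28.2 and 20.2 CPM in Brd8 libraries and 5.37 and 4.87 CPM in Nr6a1 libraries, against 6.71, 9.89 and 2.36 CPM in NT libraries. At day 9 Tfap2a had 10.8, 22.1 and 49.4 CPM in Eed libraries, 7.33, 10.1 and 29.1 CPM in Ezh2 libraries, 59.7 and 52.7 CPM in Brd8 libraries and 11.4 and 7.43 CPM in Nr6a1 libraries, against 5.22, 12.1 and 3.81 CPM in NT libraries. At day 11 Tfap2a had 76.4, 85 and 86 CPM in Eed libraries, 35, 53.2 and 30.7 CPM in Ezh2 libraries, 112, 64.9 and 85.8 CPM in Brd8 libraries and 7.48 and 18.5 CPM in Nr6a1 libraries, against 8.67, 18 and 3.22 CPM in NT libraries. Eed, Ezh2 and Brd8 libraries lay above NT without overlap at days 7 and 11, whereas at day 9 the lowest Eed and Ezh2 libraries fell within the NT range.

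Tfap2a rose with Eed guides 6.46-fold at day 7 (log2 fold change 2.69 ± 0.508, adjusted p = 0.000476), 3.66-fold at day 9 (1.87 ± 0.485, adjusted p = 0.0184) and 8.23-fold at day 11 (3.04 ± 0.492, adjusted p = 1.12e-05). With Brd8 guides it rose 3.98-fold, 7.60-fold and 8.76-fold at days 7, 9 and 11 (1.99 ± 0.507, 2.93 ± 0.519 and 3.13 ± 0.493; adjusted p = 0.0144, 0.000118 and 1.09e-05). With Ezh2 guides it passed at day 11 alone (3.96-fold, 1.99 ± 0.483, adjusted p = 0.0063). The Ezh2 difference at day 7 also passed with only the groups compared in the fit (1.89, adjusted p = 0.0018). The Eed calls at days 7 and 11 and the Brd8 calls at days 9 and 11 were kept in every alternative. The Eed call at day 9 was lost without Eed replicate 3 (log2 fold change 1.11, adjusted p = 0.351), NT replicate 1 or NT replicate 3 (adjusted p = 0.104 and 0.136) and with only the groups compared in the fit (adjusted p = 0.0709; 0.00178 to 0.351 over its alternatives). The Brd8 call at day 7 was lost without Brd8 replicate 1 or NT replicate 1 or 3 (adjusted p = 0.0694, 0.052 and 0.111; 0.000478 to 0.111), and the Ezh2 call at day 11 without NT replicate 3 (adjusted p = 0.0709; 0.00197 to 0.0729) or replicate 3 of both Eed and NT (0.0729). Without NT replicate 2, the highest NT library for Tfap2a at days 9 and 11, the log2 fold changes were 2.57 (Eed, day 9), 3.63 (Brd8, day 9), 3.75 (Eed, day 11), 2.70 (Ezh2, day 11) and 3.84 (Brd8, day 11).

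Tfap2b (chromosome 1, 19208914 to 19238576, plus strand) encodes AP-2β, a paralog expressed in crest, in sympathetic precursors and in dorsal interneurons. At day 7 Tfap2b had 55.5, 60.7 and 44.8 CPM in Eed libraries, 17.4, 33.6 and 18.1 CPM in Ezh2 libraries, 56, 35.7 and 18.5 CPM in Brd8 libraries and 3.89 and 4.83 CPM in Nr6a1 libraries, against 5.85, 6.35 and 5.85 CPM in NT libraries. At day 9 Tfap2b had 9.05, 13.4 and 37.7 CPM in Eed libraries, 6.15, 7.91 and 20.6 CPM in Ezh2 libraries, 18.8 and 23 CPM in Brd8 libraries and 9.28 and 3.89 CPM in Nr6a1 libraries, against 4.05, 6.06 and 3.1 CPM in NT libraries. At day 11 Tfap2b had 46.9, 55.4 and 81.4 CPM in Eed libraries, 32.7, 32.4 and 23.1 CPM in Ezh2 libraries, 55.2, 27.7 and 36.1 CPM in Brd8 libraries and 11.6 and 14 CPM in Nr6a1 libraries, against 11.8, 5.19 and 14.7 CPM in NT libraries. No Eed, Ezh2 or Brd8 library overlapped NT on any day.

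With Eed guides Tfap2b rose 8.94-fold at day 7 (log2 fold change 3.16 ± 0.46, adjusted p = 2.19e-05), 4.35-fold at day 9 (2.12 ± 0.457, adjusted p = 0.0047) and 5.78-fold at day 11 (2.53 ± 0.438, adjusted p = 3.01e-05). With Brd8 guides it rose 6.12-fold, 4.62-fold and 3.76-fold at days 7, 9 and 11 (2.61 ± 0.456, 2.21 ± 0.49 and 1.91 ± 0.434; adjusted p = 0.000584, 0.00148 and 0.00139). With Ezh2 guides the rise of 2.78-fold passed at day 11 (1.48 ± 0.431, adjusted p = 0.0254), and the values at days 7 and 9 were 1.93 ± 0.457 and 1.40 ± 0.458 (adjusted p = 0.0657 and 0.805). The Ezh2 difference at day 7 passed with only the groups compared in the fit (adjusted p = 0.000143) and without Ezh2 replicate 3 (0.0449). The 3 Brd8 calls and the Eed calls at days 7 and 11 were kept in every alternative. The Eed call at day 9 was lost without Eed replicate 3 (log2 fold change 1.27, adjusted p = 0.199) or NT replicate 3 (adjusted p = 0.0517; 0.000356 to 0.199 over its alternatives). The Ezh2 call at day 11 was lost without Ezh2 replicate 1 or 2 (adjusted p = 0.0723 and 0.0789) or NT replicate 1 or 2 (adjusted p = 0.0517 and 0.133; 0.00892 to 0.133).

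Snai2 (chromosome 16, 14705852 to 14709385, plus strand) encodes the zinc finger repressor Slug, which acts in crest delamination, and its level was low. At day 11 Snai2 had 6.74, 5.57 and 6.02 CPM in Eed libraries, 1.23, 1.49 and 0.439 CPM in Ezh2 libraries, 7.09, 2.29 and 3.26 CPM in Brd8 libraries and 0.806 and 1.12 CPM in Nr6a1 libraries, against 1.55, 2.23 and 0.704 CPM in NT libraries. The Eed libraries stood above the NT and the Ezh2 libraries without overlap. The 4.07-fold rise with Eed guides passed (log2 fold change 2.02 ± 0.659, adjusted p = 0.0215) and the difference with Brd8 guides did not (1.49 ± 0.655, adjusted p = 0.118). Snai2 was also the member called between Eed and Ezh2 guides, 5.83-fold higher in Eed libraries at day 11 (2.54 ± 0.668, adjusted p = 0.0311), a comparison in which 1.53% of all genes were called higher. The Eed call against NT was lost without Eed replicate 1 (adjusted p = 0.0523), NT replicate 1 (0.0546) or NT replicate 3 (0.103), and without replicate 3 of both groups (0.145; 0.00981 to 0.145 over its alternatives). The call between Eed and Ezh2 guides was lost on leaving out Eed replicate 1, 2 or 3 (adjusted p = 0.0551, 0.0558 and 0.0872), Ezh2 replicate 1 or 3 (0.0978 and 0.172; 0.00467 to 0.172), or replicate 3 of both Eed and NT (0.0679). At days 7 and 9 Snai2 was between 0.0966 and 3.4 CPM in every library and was not called.

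Ets1 (chromosome 9, 32636221 to 32757820, plus strand) encodes an ETS factor of cranial crest, heart crest and endothelium, and it moved differently from the other members. At day 7 Ets1 had 22, 31 and 18.8 CPM in Eed libraries, 16.9, 16.5 and 16.1 CPM in Ezh2 libraries, 30.4, 19.9 and 12.2 CPM in Brd8 libraries and 15.4 and 9.75 CPM in Nr6a1 libraries, against 12.9, 13.7 and 13.1 CPM in NT libraries. At day 11 Ets1 had 30.4, 33.3 and 24.3 CPM in Eed libraries, 32, 28.6 and 27.8 CPM in Ezh2 libraries, 38.6, 39.7 and 39 CPM in Brd8 libraries and 33.4 and 43.2 CPM in Nr6a1 libraries, against 52.7, 44.8 and 51.5 CPM in NT libraries. The Eed and Ezh2 libraries were above NT at day 7 and below NT at day 11, without overlap on either day. At day 11 the Brd8 and Nr6a1 libraries were also all below every NT library, without being called. Ets1 rose 1.80-fold with Eed guides at day 7 (log2 fold change 0.85 ± 0.215, adjusted p = 0.00858). At day 11 it fell 1.69-fold with Eed guides (-0.76 ± 0.201, adjusted p = 0.00462) and 1.69-fold with Ezh2 guides (-0.76 ± 0.2, adjusted p = 0.0128). The day 7 call was lost without Eed replicate 2 (0.63, adjusted p = 0.111; 0.00256 to 0.111 over its alternatives), the Eed call at day 11 without replicate 3 of both groups (-0.62, adjusted p = 0.0805; 0.00262 to 0.0805) and the Ezh2 call without Ezh2 replicate 3 (-0.72, adjusted p = 0.0597; 0.00335 to 0.0597).

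In NT libraries Ets1 averaged 49.7 ± 4.27 CPM at day 11 and 13.3 ± 0.434 CPM at day 7, a 3.75-fold rise with time (1.91 ± 0.212, adjusted p = 1.18e-09). Its response to the guides was more negative at day 11 than at day 7 by -1.60 ± 0.294 for Eed (adjusted p = 0.000387), kept in every alternative, and by -1.0 ± 0.293 for Brd8 (adjusted p = 0.0386). The Brd8 difference was lost in 12 of 19 alternatives, with -0.61 (adjusted p = 0.27) without Brd8 replicate 1 of day 7. For Ezh2 the difference was -1.08 ± 0.295 (adjusted p = 0.0515), and it passed in 7 alternatives, the replicate block among them. These 7 include the fit without a low-count filter, whose added calls are not used elsewhere. Of 8 endothelial markers, all tested, none rose with Eed, Ezh2 or Brd8 guides on any day. Pecam1, an endothelial adhesion molecule, fell with Eed guides at day 7, to 0.99 ± 0.55 CPM in Eed libraries against 4.19 ± 1.36 CPM in NT libraries (-2.10 ± 0.646, adjusted p = 0.0343). It fell with Brd8 guides at day 9, to 0.235 ± 0.0442 CPM in Brd8 libraries against 1.91 ± 0.246 CPM in NT libraries (-3.00 ± 0.837, adjusted p = 0.0108). Kdr, the VEGF receptor gene, fell at day 11 with Eed guides (-1.36 ± 0.445, adjusted p = 0.0223) and Ezh2 guides (-1.99 ± 0.454, adjusted p = 0.00348). The part of endothelial cells in the Ets1 level was not tested.

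Twist1 (chromosome 12, 33957671 to 33959829, plus strand), a basic helix-loop-helix factor of migrating and mesenchymal crest, was called in no comparison by edgeR or DESeq2. Group means were between 4.45 ± 1.53 CPM (Ezh2 libraries, day 9) and 12.4 ± 2.3 CPM (Eed libraries, day 11). At day 11 Twist1 had 9.8, 14.1 and 13.3 CPM in Eed libraries, against 4.03, 11.8 and 5.94 CPM in NT libraries. The groups overlapped through NT replicate 2 (log2 fold change 0.77 ± 0.358, adjusted p = 0.115), and without that library the Eed difference passed (adjusted p = 0.0127).

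Erbb3 (chromosome 10, 128567523 to 128589652, minus strand) encodes a neuregulin receptor of migrating crest and Schwann cell precursors. At day 7 Erbb3 had 13.9, 22.3 and 10.8 CPM in Eed libraries, 5.66, 15.5 and 3.57 CPM in Ezh2 libraries, 28.3, 18.3 and 11.1 CPM in Brd8 libraries and 2.41 and 2.36 CPM in Nr6a1 libraries, against 4.64, 1.67 and 2.16 CPM in NT libraries. At day 9 Erbb3 had 13.5, 24.8 and 37.9 CPM in Eed libraries, 9.01, 9.87 and 40.9 CPM in Ezh2 libraries, 82.7 and 48.5 CPM in Brd8 libraries and 8.94 and 5.9 CPM in Nr6a1 libraries, against 3.43, 6.52 and 3.81 CPM in NT libraries. At day 11 Erbb3 had 48.4, 58.9 and 76.2 CPM in Eed libraries, 27.7, 50.1 and 26.5 CPM in Ezh2 libraries, 88.8, 82 and 62.3 CPM in Brd8 libraries and 3.63 and 15.6 CPM in Nr6a1 libraries, against 15.1, 24.5 and 15.7 CPM in NT libraries. Eed and Brd8 libraries were above NT without overlap on every day, and Ezh2 libraries at days 9 and 11.

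With Brd8 guides Erbb3 rose 6.24-fold, 13.8-fold and 4.22-fold at days 7, 9 and 11 (log2 fold change 2.64 ± 0.565, 3.79 ± 0.56 and 2.08 ± 0.482; adjusted p = 0.00347, 1.2e-05 and 0.00173), kept in every alternative. With Eed guides it rose 5.06-fold, 5.29-fold and 3.31-fold (2.34 ± 0.572, 2.40 ± 0.523 and 1.73 ± 0.48; adjusted p = 0.00652, 0.00523 and 0.0068). With Ezh2 guides no day passed (1.40 ± 0.591, 2.12 ± 0.52 and 0.92 ± 0.475; adjusted p = 0.347, 0.308 and 0.266). The Eed calls were lost at day 7 without Eed replicate 2 (adjusted p = 0.0522; 0.00021 to 0.0522 over its alternatives), at day 9 without Eed replicate 3 (0.0923; 0.000934 to 0.0923) and at day 11 without replicate 3 of both groups (0.102; 0.000197 to 0.102). In NT libraries Erbb3 averaged 18.4 ± 5.26 CPM at day 11 and 2.82 ± 1.59 CPM at day 7, a 5.98-fold rise with time (2.58 ± 0.566, adjusted p = 0.000239). Without NT replicate 1 of day 7, the log2 fold change was 3.02 for Eed guides at day 7, 3.32 for Brd8 guides at day 7 and 3.26 for the NT time course. Erbb3 cannot signal alone, and Erbb4 is 1 of its partner receptors. Of 15 tested ligand and receptor genes of the crest, Wnt1, Bmp7 and Erbb4 were called in 6, 4 and 3 comparisons with NT. Erbb4 fell with Eed guides at day 11 (-0.89 ± 0.181, adjusted p = 0.000281) and with Brd8 guides at days 9 and 11 (-0.75 ± 0.213 and -0.70 ± 0.181; adjusted p = 0.0125 and 0.00479). Results for the other receptors of that list, other partners of Erbb3 included, are not given here.

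Tlx2 (chromosome 6, 83068324 to 83070293, minus strand) encodes a homeobox factor of enteric and other autonomic neurons derived from the crest. At day 11 Tlx2 had 7.02, 9.84 and 8.2 CPM in Eed libraries, 1.32, 8.3 and 1.45 CPM in Ezh2 libraries, 10, 10.4 and 5.92 CPM in Brd8 libraries and 0 and 0 CPM in Nr6a1 libraries, against 1.32, 0.649 and 0 CPM in NT libraries. Eed and Brd8 libraries lay above NT without overlap. Tlx2 rose 12.2-fold with Eed guides (log2 fold change 3.60 ± 1.22, adjusted p = 0.0276) and 12.8-fold with Brd8 guides (3.68 ± 1.22, adjusted p = 0.0311). The Eed call was lost without Eed replicate 2, NT replicate 2 or NT replicate 3 (adjusted p = 0.0543, 0.0714 and 0.11; 0.00621 to 0.15 over its alternatives) and without replicate 3 of both Eed and NT (0.15). The Brd8 call was lost without Brd8 replicate 1 or 2 (adjusted p = 0.0653 and 0.0606), NT replicate 2 or 3 (0.079 and 0.125) or replicate 3 of both Eed and NT (0.128), and by DESeq2 (0.0535; 0.00281 to 0.128). Without NT replicate 1, the log2 fold changes were 4.61 for Eed and 4.69 for Brd8 guides. Nr6a1 libraries held no Tlx2 count, against 17, 7 and 0 counts in NT libraries, and the difference did not pass (adjusted p = 0.464).

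At day 9 Tlx2 had 11, 4 and 202 counts in Eed libraries, 0, 3 and 62 counts in Ezh2 libraries, 55 and 105 counts in Brd8 libraries and 13 and 0 counts in Nr6a1 libraries, against 1, 0 and 0 counts in NT libraries. Most counts of the Eed, Ezh2 and Nr6a1 groups thus lay in 1 library each, and both Brd8 libraries were high. The ratio of rates to NT was 238 for Brd8 (95% exact binomial interval 42.1 to 9465) and 149 for Eed (26.4 to 5903), intervals that cover counting error only. With 1 library left out, the Brd8 ratio was 125 to 246. The Eed ratio was 13.3 without Eed replicate 3, 352 without Eed replicate 1 and 78.1 without NT replicate 2. Without NT replicate 1, which held the NT count, Brd8 was at least 57.2-fold and Eed at least 35.7-fold higher, against a limit of 3 counts over the NT group. In Eed libraries the level was 0.274, 0.34 and 13.4 CPM, so that replicate 3 held nearly all of it, and in Brd8 libraries it was 4.89 and 5.36 CPM. Tlx2 was called with Brd8 guides (adjusted p = 0.00428) in every alternative, and with Eed guides (adjusted p = 0.0136) but not without Eed replicate 3 (adjusted p = 0.513) or NT replicate 1, 2 or 3 (0.0588, 0.0565 and 0.0856; 0.00217 to 0.513). At day 7 Tlx2 had 8.67, 3.36 and 0.0791 CPM in Brd8 libraries, 1.65, 1.6 and 2.5 CPM in Eed libraries and 0.531, 0.104 and 0 CPM in NT libraries, and was not called. The Eed difference at day 7 passed with only the groups compared in the fit (log2 fold change 2.82, adjusted p = 0.0265). The Brd8 difference passed without Brd8 replicate 3 (4.48, adjusted p = 0.0326).

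Postn (chromosome 3, 54361109 to 54391037, plus strand) encodes periostin, a matrix protein secreted by crest-derived mesenchyme and Schwann cell precursors. At day 7 Postn had 4.49, 8.02 and 4.34 CPM in Eed libraries, 3.9, 6.62 and 2.99 CPM in Ezh2 libraries, 20, 13.6 and 4.82 CPM in Brd8 libraries and 2.41 and 1.48 CPM in Nr6a1 libraries, against 1.01, 0.937 and 2.05 CPM in NT libraries. At day 9 Postn had 14.7, 24.8 and 24.6 CPM in Eed libraries, 8.5, 14.4 and 32 CPM in Ezh2 libraries, 74.2 and 31.9 CPM in Brd8 libraries and 10 and 10.7 CPM in Nr6a1 libraries, against 9.27, 8.58 and 8.69 CPM in NT libraries. At day 11 Postn had 57.2, 74.8 and 57.8 CPM in Eed libraries, 43, 59.9 and 40.2 CPM in Ezh2 libraries, 106, 76.5 and 73.9 CPM in Brd8 libraries and 40.8 and 59.5 CPM in Nr6a1 libraries, against 33.9, 36.5 and 18.4 CPM in NT libraries. Eed and Brd8 libraries did not overlap NT on any day. Nor did Ezh2 libraries at days 7 and 11 or Nr6a1 libraries at days 9 and 11, all above NT and not called.

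Postn rose with Brd8 guides 9.97-fold, 5.96-fold and 2.87-fold at days 7, 9 and 11 (log2 fold change 3.32 ± 0.509, 2.58 ± 0.407 and 1.52 ± 0.357; adjusted p = 0.000139, 2.76e-05 and 0.0019), kept in every alternative, with 1.85 at day 9 without Brd8 replicate 1. With Eed guides it rose 4.30-fold, 2.39-fold and 2.13-fold (2.11 ± 0.555, 1.26 ± 0.379 and 1.09 ± 0.355; adjusted p = 0.0117, 0.0436 and 0.0215). The Eed calls were lost at day 7 without Eed replicate 2 or NT replicate 1 or 2 (adjusted p = 0.086, 0.0818 and 0.0524; 0.000807 to 0.086 over its alternatives) and at day 11 without Eed replicate 2 or NT replicate 3 (0.0807 and 0.135; 0.00436 to 0.162), without replicate 3 of both groups (0.162) and by DESeq2 (0.0551). At day 9 the Eed call was lost by DESeq2 (0.0549) and without Eed replicate 2 or 3 (0.168 and 0.238) or NT replicate 1, 2 or 3 (0.121, 0.105 and 0.155; 0.0149 to 0.238). With Ezh2 guides it was not called (1.80 ± 0.563, 1.09 ± 0.378 and 0.68 ± 0.353). The Ezh2 difference at day 7 passed with only the groups compared in the fit (adjusted p = 0.0478). In NT libraries Postn averaged 29.6 ± 9.8 CPM at day 11 and 1.33 ± 0.623 CPM at day 7, a 23.2-fold rise with time (4.54 ± 0.494, adjusted p = 6.9e-10).

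**Figure D2:**
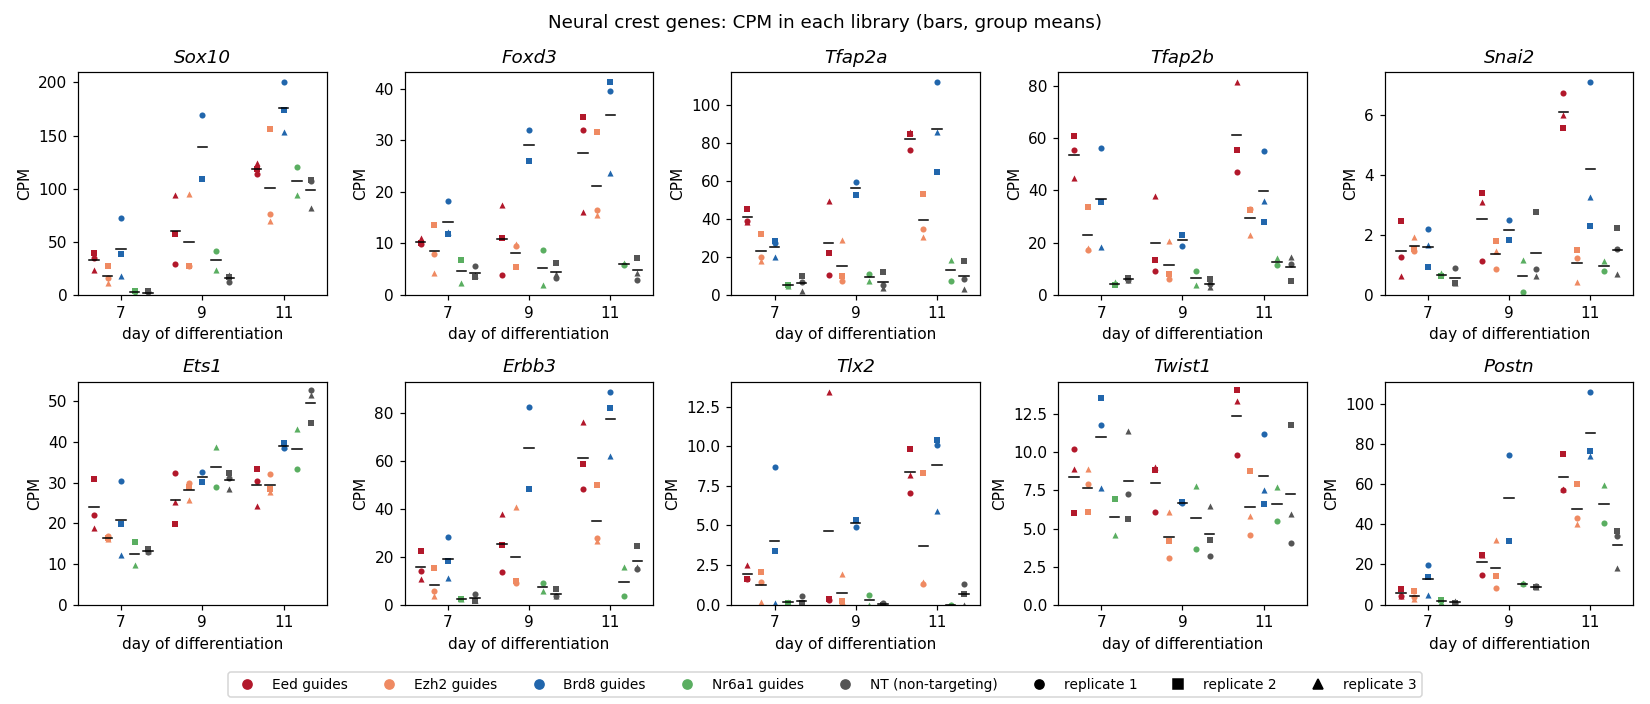
CPM of each member in each library by day, with the guide set in colour (Eed, Ezh2, Brd8, Nr6a1 and NT from left to right within a day), the replicate as symbol and the group mean as a bar. Sox10, Ets1, Erbb3 and Postn also rose with time in NT libraries, whereas Foxd3, Tfap2a and Tfap2b stayed at or below 18 CPM in every NT library and were higher in Eed and Brd8 libraries at day 11.

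In NT libraries 4 members, Sox10, Ets1, Erbb3 and Postn, were higher at day 11 than at day 7, and none was lower. In that comparison 21.9% of all genes were called higher. The median log2 difference of the 10 members was 1.32, and the other 6 members were between -0.16 (Twist1) and 1.35 (Tlx2) without passing. The 4 calls were kept in every alternative. Over the same interval markers of the oligodendrocyte lineage rose in NT libraries, with 8 of 11 tested higher and none lower. Their summed level was 908 to 1083 CPM at day 11 and 417 to 435 CPM at day 7. Olig2 and Nkx2-2 of that list also mark ventral progenitors. Of 14 ectomesenchyme markers, which overlap in use with other fibroblast-like cells, 10 rose and none fell.

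Oligodendrocyte lineage cells also use Sox10 and Erbb3, and most of their tested markers fell with Eed and Brd8 guides at day 11. Of 11 tested markers, 10 fell and none rose with Eed guides, 5 fell and none rose with Ezh2 guides, and 9 fell and none rose with Brd8 guides. Their summed level at day 11 was 269 to 322 CPM in Eed libraries, 504 to 564 CPM in Ezh2 libraries and 351 to 369 CPM in Brd8 libraries, against 908 to 1083 CPM in NT libraries, and Mog was at 0 in all 4 groups. Olig2, a factor of motor neuron and oligodendrocyte progenitors, averaged 75.5 ± 9.07 CPM in Eed libraries and 249 ± 23.4 CPM in NT libraries (log2 fold change -1.71 ± 0.167, adjusted p = 1.04e-09). Sox6, which holds oligodendrocyte precursors immature, averaged 71.5 ± 11.1 CPM in Eed libraries and 266 ± 11 CPM in NT libraries (-1.89 ± 0.19, adjusted p = 1.69e-09). Sox8, a SoxE paralog of Sox10, averaged 25.2 ± 2.97 CPM in Eed libraries and 89.9 ± 15.7 CPM in NT libraries (-1.83 ± 0.199, adjusted p = 8.97e-09), and fell with Ezh2 and Brd8 guides too (-0.81 ± 0.191 and -1.56 ± 0.197; adjusted p = 0.00444 and 2.88e-07). What part of Sox10 and Erbb3 RNA comes from this lineage was not tested.

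With Nr6a1 guides at day 11, 2 of the 11 tested oligodendrocyte markers, Cnp and Mbp, were called higher. Their summed level was 1142 to 1660 CPM in Nr6a1 libraries against 908 to 1083 CPM in NT libraries. By edgeR 0 of 10 members were called at any day, in comparisons where 0.145%, 0.151% and 0.0789% of all genes were called (1122, 1082 and 1243 genes at an unadjusted p under 0.05), and DESeq2 also called 0. The members' median log2 fold change was -0.21, 0.33 and -0.00 at days 7, 9 and 11. Each Nr6a1 group had 2 libraries.

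For Ezh2 guides at day 9, edgeR called 0 of 10 members and 0 of all genes (685 at an unadjusted p under 0.05), and DESeq2 called 0 members and 3 genes in all. The members' log2 fold changes were still positive for 7 of 10, with Erbb3 at 2.12 ± 0.52, Sox10 at 1.66 ± 0.448 and Tfap2b at 1.40 ± 0.458. At days 7 and 9 no member was called between Eed and Ezh2 guides, where 0.151% and 0.0% of all genes were called (1529 and 1486 at an unadjusted p under 0.05). Tfap2a and Tfap2b were higher in Eed than in Ezh2 libraries at day 11 by 1.05 ± 0.439 and 1.06 ± 0.403 on the log2 scale without passing (adjusted p = 0.202 and 0.151). With only the groups compared in the fit, both passed between Eed and Ezh2 guides at day 11 (adjusted p = 0.00808 and 0.0165) and at day 7 (adjusted p = 0.0442 and 0.011). Between Brd8 and Eed guides no member was called at day 7, 9 or 11, with 0.0921%, 0.112% and 0.342% of all genes called (1076, 1476 and 1236 at an unadjusted p under 0.05). The widest difference that did not pass was Foxd3 at day 9, 1.45 ± 0.478 higher in Brd8 libraries (adjusted p = 0.255). Sox10 at day 11 passed with only the groups compared, 0.56 higher on the log2 scale in Brd8 than in Eed libraries (adjusted p = 0.0276).

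Libraries of a group often differed in many members at once. In Brd8 libraries of day 7, replicate 1 was the highest for 8 of the 10 members and replicate 3 the lowest for 8. In Eed libraries of day 9, replicate 3 was the highest for 7 and replicate 1 the lowest for 9. In Ezh2 libraries of day 9, replicate 3 was the highest for 8 and replicate 1 the lowest for 8, and at day 11 replicate 2 was the highest for 8. Depth did not follow a single direction: the low Eed replicate 1 of day 9 had 38240227 counts and the high replicate 3 had 14745439, whereas the low Ezh2 replicate 1 of day 9 had 13384572 and the high replicate 3 had 30958594. Leaving out Eed replicate 3 of day 9 took the Eed count of called members at that day to 0 from 6, and leaving out NT replicate 1 or 3 took it to 2. Leaving out replicate 3 of both Eed and NT at day 11 took that count to 3 from 8.

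**Figure D3:**
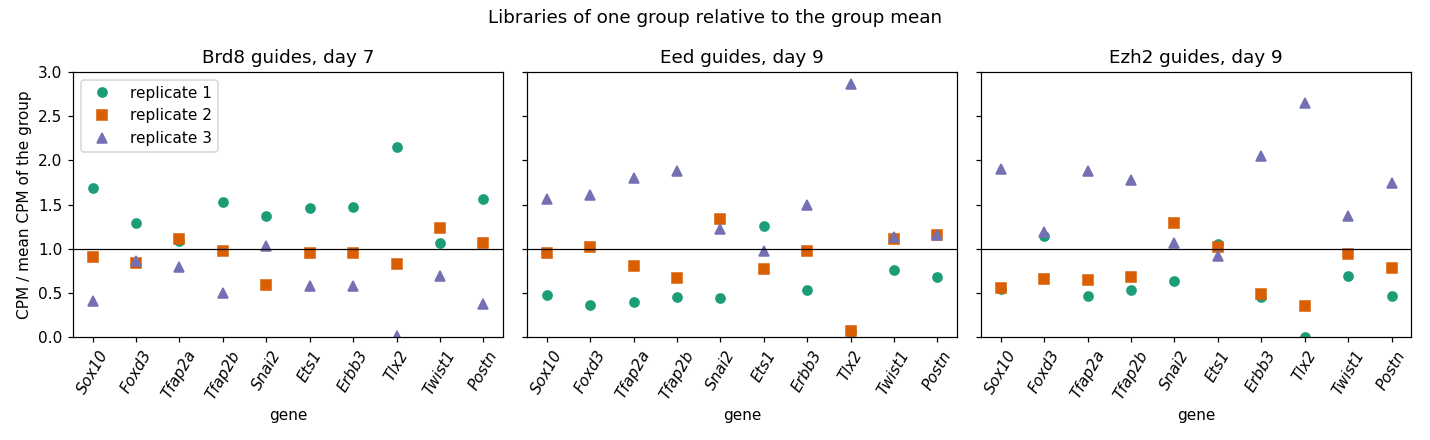
CPM of each library divided by the mean of its group, for each member, in Brd8 libraries of day 7, Eed libraries of day 9 and Ezh2 libraries of day 9, with the line at the group mean. Replicate 1 of Brd8 and replicate 3 of Eed and Ezh2 lie above the line for most members. In the Eed and Ezh2 panels Ets1 is highest in replicate 1 and Snai2 in replicate 2. In the Brd8 panel both are highest in replicate 1, with most other members.

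Some of the neural plate border genes, which act before the members, were called higher in the same comparisons. Of 12 tested neural plate border genes, 5, 3 and 8 rose with Eed guides at days 7, 9 and 11, 1, 0 and 4 with Ezh2 guides and 4, 4 and 7 with Brd8 guides, and none fell. The list's median log2 fold change was 2.38, 0.96 and 1.50 with Eed guides and 1.84, 1.35 and 1.30 with Brd8 guides. Pax3, a paired box factor of dorsal neural tube and crest, averaged 38.3 ± 13.3 CPM in Eed libraries, 22.3 ± 8 CPM in Brd8 libraries and 3.26 ± 1.83 CPM in NT libraries at day 7 (3.53 ± 0.528 with Eed guides and 2.75 ± 0.521 with Brd8 guides; adjusted p = 2.94e-05 and 0.00125). Zic1, a zinc finger factor of the border and dorsal neural tube, passed in 7 of the 12 comparisons with NT, and averaged 58.1 ± 8.86 CPM in Eed libraries and 11.7 ± 3.88 CPM in NT libraries at day 7 (2.35 ± 0.332, adjusted p = 1.75e-05). Msx3, a homeobox gene of the dorsal neural tube, averaged 10.9 ± 2.49 CPM in Eed libraries and 0.284 ± 0.492 CPM in NT libraries at day 11 (5.10 ± 1.02, adjusted p = 0.000241). Of the ligands, Wnt1, made by the dorsal midline, averaged 35.2 ± 13.8 CPM in Eed libraries, 20.9 ± 6.06 CPM in Brd8 libraries and 2.15 ± 0.857 CPM in NT libraries at day 7 (3.97 ± 0.867 and 3.22 ± 0.851; adjusted p = 0.0023 and 0.0191). These genes also mark dorsal spinal progenitors, so they do not by themselves separate crest from dorsal neural tube.

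Other specification and delamination genes were called in both directions. Of 16, none rose and 5 fell with Eed guides at day 7, where 5.76% of all genes were called lower, and 3 rose and 4 fell at day 11 with Eed guides and likewise with Brd8 guides, where 10.6% and 7.48% of all genes were called lower. Itga4, an integrin of migrating crest, rose in 6 comparisons, and averaged 68 ± 15.7 CPM in Brd8 libraries and 12.9 ± 1.34 CPM in NT libraries at day 11 (2.40 ± 0.322, adjusted p = 7.18e-07). Cdh11, a mesenchymal cadherin, averaged 166 ± 19 CPM in Brd8 libraries and 223 ± 3.06 CPM in NT libraries (-0.43 ± 0.105, adjusted p = 0.003).

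Markers of crest derivatives were also called in both directions at day 11, when 13.3% of all genes were called higher with Eed guides and 10.3% with Brd8 guides. Of 12 Schwann lineage genes, 5 rose and 1 fell with Brd8 guides at day 11 and 3 rose and 3 fell with Eed guides. The myelin gene Pmp22 averaged 15.9 ± 4.88 CPM in Eed libraries and 5.98 ± 2.45 CPM in NT libraries at day 11 (1.40 ± 0.287, adjusted p = 0.000306), while Fabp7, a fatty acid binding protein of Schwann cell precursors and radial glia, averaged 139 ± 30.7 CPM in Eed libraries and 395 ± 15.1 CPM in NT libraries (-1.50 ± 0.167, adjusted p = 1.3e-08). Of 11 tested sensory neuron genes, 6 rose and 2 fell at day 11 with Eed guides and likewise with Brd8 guides, and 4 rose with Ezh2 guides. Pou4f1, a sensory and dorsal interneuron factor, averaged 60.6 ± 7.47 CPM in Eed libraries and 12.1 ± 3.28 CPM in NT libraries at day 11 (2.31 ± 0.387, adjusted p = 1.95e-05). Of 10 autonomic and enteric genes, 2 rose and 1 fell with Eed guides at day 11 and 3 rose with Brd8 guides, among them Phox2a, an autonomic and hindbrain homeobox gene, at 4.09 ± 0.896 CPM in Brd8 libraries and 1.1 ± 0.881 CPM in NT libraries (1.91 ± 0.63, adjusted p = 0.0296). Of 8 melanocyte genes 3 were tested, and Kit, a receptor also of neural cells, fell at day 11 with Eed, Ezh2 and Brd8 guides (-0.82 ± 0.132, -0.63 ± 0.131 and -0.70 ± 0.132). Pmel, a melanosome protein gene, had 0.591, 0.416 and 2.17 CPM in Brd8 libraries against 0.465, 0 and 0 CPM in NT libraries of day 11 and was not called (adjusted p = 0.257). Of the 5 genes not tested, Dct, Tyr, Tyrp1, Mlana and Slc45a2, none was above 0.464 CPM in any library of day 11. Among the ectomesenchyme markers, Dlx2, Acta2 and Dlx1 were called, in either direction, in 3, 2 and 2 comparisons with NT over all days.

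Markers of other cells that use the AP-2 genes were called higher in some of the comparisons in which Tfap2a and Tfap2b rose, and not in others. With Eed guides at day 11, 8 of 10 epithelial and surface ectoderm genes rose, and their summed level was 202 to 395 CPM in Eed libraries, 17.3 to 51.8 CPM in Ezh2 libraries and 7.69 to 40.9 CPM in Brd8 libraries, against 16.5 to 26.8 CPM in NT libraries. Krt5, a basal keratin, averaged 65.4 ± 23.1 CPM in Eed libraries and 1.41 ± 1.36 CPM in NT libraries (5.55 ± 0.859, adjusted p = 6.97e-06). With Brd8 guides none of the 10 was called at any day, while Tfap2a at day 11 differed between Brd8 and Eed guides by a log2 value that did not pass (0.09 ± 0.432, adjusted p = 0.982). Of 8 inhibitory interneuron genes, 7 rose at day 11 with Eed guides, 6 with Ezh2 guides and 7 with Brd8 guides, and their summed level was 279 to 328 CPM in Eed libraries, 296 to 331 CPM in Ezh2 libraries and 311 to 341 CPM in Brd8 libraries, against 124 to 140 CPM in NT libraries. At day 7 with Eed guides, when Tfap2a and Tfap2b had already risen, none of the 8 interneuron genes and 2 of the 10 epithelial genes were called. The part of either cell type in the AP-2 levels was not tested. Of 10 tested mesoderm genes, 4 rose with Brd8 guides at day 9 (Foxc1, Foxc2, Meox1 and Pax1) and Foxc2 rose with Eed guides at day 9. Of 10 ventral progenitor genes, none rose, and 3, 0 and 5 fell with Eed guides at days 7, 9 and 11, 0, 0 and 5 with Ezh2 guides and 2, 3 and 6 with Brd8 guides. Olig2 and Nkx2-2 are in the ventral progenitor list and in the oligodendrocyte list, so the falls of these lists are not separate results. With Nr6a1 guides, the calls over all the lists were Lhx1 higher at day 7, Omg and Pdgfra higher at day 9 and Cnp and Mbp higher at day 11.

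**Figure D4:**
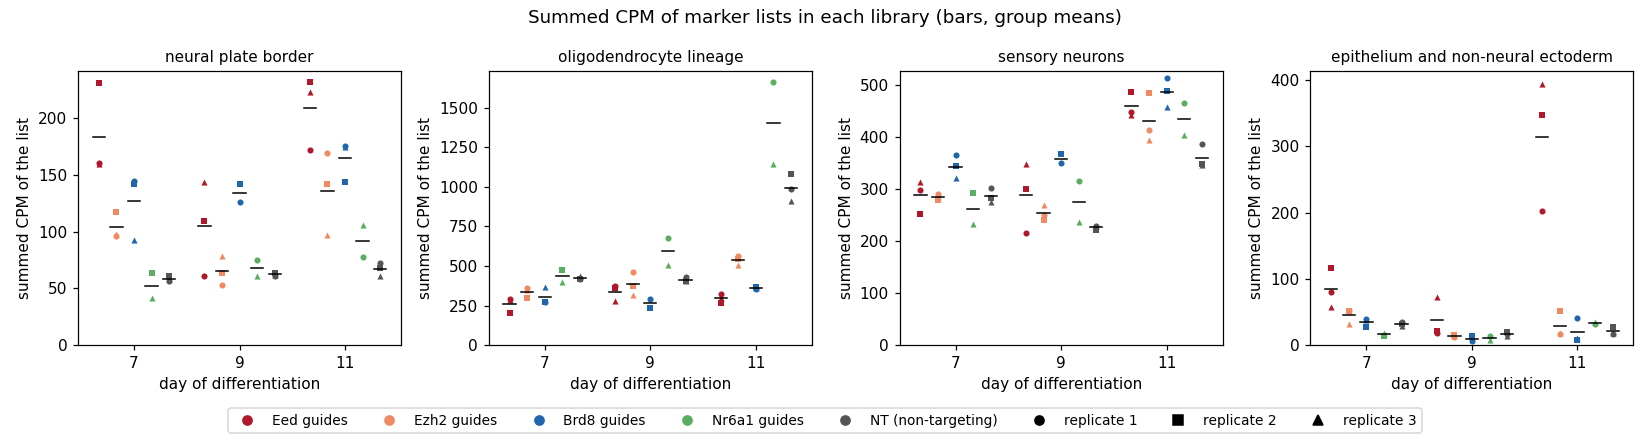
Summed CPM of 4 marker lists in each library by day, with guide sets in colour from left to right (Eed, Ezh2, Brd8, Nr6a1 and NT), replicates as symbols and group means as bars. The mean of border genes is highest in Eed libraries at days 7 and 11 and in Brd8 libraries at day 9, oligodendrocyte genes are lowest in Eed and Brd8 libraries at day 11, sensory genes are higher in all knockout libraries than in NT libraries at day 11, and epithelial genes reach 202 to 395 CPM in Eed libraries of day 11 alone.

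The members fell into patterns that differed in how they followed time. Over the 15 group means of log2 CPM, which share libraries and the NT baseline, Foxd3 and Tfap2a had a Pearson r of 0.954, Tfap2a and Tlx2 0.942, Tfap2a and Tfap2b 0.923 and Sox10 and Postn 0.948, whereas Ets1 had 0.833 with Sox10 and 0.281 with Tfap2a. These values are descriptions over 15 points. The genes most like Sox10 in this measure were Dlx2 (0.962), Gpr37 (0.958) and Npr3 (0.949). Those most like Postn were Ndst3 (0.984), Gpr37 (0.983) and Afap1l2 (0.973). Tfap2b was most like Zic1 (0.971), Tnfrsf19 (0.952) and Msx3 (0.941), Tfap2a like Msx3 (0.959), Foxd3 (0.954) and Zic1 (0.951), and Foxd3 like Gas7 (0.959), Tfap2a (0.954) and Sntb1 (0.953). Erbb3 was most like Tspan18 (0.965), Npr2 (0.956) and Heyl (0.954), and Tlx2 like its paralog Tlx3 (0.949), Tfap2a (0.942) and En1 (0.939). For Ets1 (Tpra1 at 0.928), Twist1 (Focad at 0.930) and Snai2 (Plxnd1 at 0.889) the nearest genes were no crest genes of the lists used. The same held for Erbb3 and Postn.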

How the data were processed

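Bulk RNA libraries (directional, ribodepleted, per the labels' protocols) were analysed from the estimated counts per gene symbol that the authors deposited. Build mm10 and DESeq2 are named in the submitters' processing notes. Aligner, quantifier and strand use: not given in the sources used here. Estimated counts with a fraction (2.95% of values) were rounded. In R 4.3.3, edgeR 4.0.16 filtered low counts by group, scaled 41 libraries by TMM and fitted 1 quasi-likelihood model with a mean per genotype and day from the titles. Tests were two-sided, with Benjamini-Hochberg adjustment over all tested genes of each comparison. Differences between days were interaction contrasts. Folds against 1 to 3 counts are rate ratios. The members and the marker lists were chosen with earlier results of these data known. Genes outside the members were named by a rule: up to 3 per list called in most comparisons with NT, and the 3 nearest to each member by Pearson r. Mog, Cnp, Mbp, Omg, Pdgfra, Foxc1, Pmel, Dct, Tyr, Tyrp1, Mlana and Slc45a2 were named outside it, after their values were seen. Positions are from GENCODE M21 (GRCm38, the assembly of mm10) and promoters from RefSeq. Rn45s took 4.06 to 15.8% of counts. Alternatives were DESeq2 1.42.0, its size factors, no low-count filter, a replicate block, only the groups compared, no Rn45s, and libraries left out. Where that left a group with 1 library, its spread was taken from the other groups. The fit was tested on simulated data.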

Additional observations from a re-analysis of the deposited data

Results flagged for a closer look

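The effect of the guides on Sox10, as a ratio to NT, differed between days. The tested difference of the log2 fold change (day 11 minus day 7) was -3.64 ± 0.74 for Eed, -3.01 ± 0.754 for Ezh2 and -3.46 ± 0.735 for Brd8 (adjusted p = 0.00133, 0.0291 and 0.00323). For Ets1 it was -1.60 ± 0.294 for Eed and -1.0 ± 0.293 for Brd8 (adjusted p = 0.000387 and 0.0386). Between guides against the PRC2 subunits, Snai2 was 2.54 ± 0.668 higher on the log2 scale in Eed than in Ezh2 libraries at day 11 (adjusted p = 0.0311). No group held 4 libraries, the smallest number for which a test for an outlying library was run.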

How the results depend on the processing

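None of the 54 called pairs of member and comparison changed direction in any alternative. Direction was not compared for pairs called in no fit. Of the 54 called pairs, 30 were kept in every alternative, and of the 44 against NT, 23. Without the low-count filter, members called were 6 for Ezh2 at day 7 (1 in the fit reported), 6 at day 9 (0) and 7 at day 11 (4), and 1 and 3 for Nr6a1 at days 9 and 11 (0 and 0). The standard errors of that fit were a median 0.49 of those reported, so its added calls were not used. With only the groups compared, 4 members were called for Ezh2 at day 7. Without replicate 3 of Eed and NT at day 11, 3 were called for Eed at day 11 (8). Leaving out 1 library gave 3 to 6 members for Eed at day 7, 0 to 7 at day 9 and 5 to 8 at day 11, and 0 to 2 for Ezh2 at day 7. With the replicate number as a block, the counts were unchanged in all 13 comparisons (6, 6 and 8 for Eed, 1, 0 and 4 for Ezh2, 6, 7 and 6 for Brd8, 0 for Nr6a1 and 4 for the NT time course). Same-numbered libraries deviated together with r of -0.0278 to 0.0798, so the numbers were not taken as pairs. Of all genes, edgeR called 23 for Ezh2 at day 7, against 167 by DESeq2, 353 without the filter and 448 in a fit of those groups alone. At day 9 edgeR called 0, against 3, 123 and 12. For Nr6a1 edgeR called 22, 23 and 12, against 58, 41 and 65 by DESeq2 and 278, 254 and 228 without the filter. For Eed at day 9 edgeR called 782 genes, and 86 without Eed replicate 3. For Brd8 at day 7 it called 722, and 233 without Brd8 replicate 1. Depth limits Tlx2 and Snai2, whose NT groups held 1 to 24 and 27 to 78 counts.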
